A study of Caenorhabditis elegans with 2 samples.

Results

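Peaks of the transcription factor ELT-3 that lie at the starts of coding genes of a single strand are described here. They come from chromatin immunoprecipitation and sequencing (ChIP-seq) in Caenorhabditis elegans. Members were taken from the submitters' thresholded list of regions in build ce11, without its 24 mitochondrial regions. Not every region in it overlaps a region in the list of each library, as given below. A region qualified when its summit fell in the window from 1000 bp before to 500 bp after the start (5′ end) of at least 1 protein-coding gene and all genes so reached had the same orientation. These are called single-strand peaks, where the strand is that of the genes and not a state of the DNA. The rule found 1045 of the 2916 thresholded peaks on nuclear chromosomes, or 35.8% (exact binomial 95% interval 34.1 to 37.6). The other nuclear peaks were 411 whose windows held gene starts of both strands, called opposite-strand peaks, and 1460 away from coding gene starts.

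The study has 1 group of 2 libraries, labelled biological replicates 1 and 3, from whole L1 larvae of strain OP75 (unc-119(ed3) III; wgIs75), males and females pooled, age unknown. The transgene wgIs75 expresses ELT-3 with a GFP-FLAG tag at its C terminus, and its copy number and the sequence that drives it were not given in the labels. Both libraries carry the unc-119 allele and the transgene, and the same control file served both, so no condition could be compared with another. The labels name elt-3 as the antibody target in one field and eGFP-elt-3 in another, which does not settle what the antibody recognised. Every cell type of the larva contributes chromatin, and a peak seen in few cells cannot be told apart from a weak peak in many. The lists hold no read counts, so depth is unknown and the intervals given cover the counting of peaks only.

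ELT-3 belongs to the GATA family, zinc-finger proteins that read the DNA sequence GATA, and it is known from the epidermis (hypodermis), the tissue that secretes the collagen cuticle. Worm genes are closely packed, and a gene may follow its upstream neighbour in the same direction or share its upstream region with a divergent neighbour. Many worm transcripts are trimmed at the 5′ end by trans-splicing, so an annotated gene start is often not the place where transcription begins. A site that fits WGATAR on either DNA strand is called a GATA site here. Its 4 forms are AGATAA and TGATAA, which end in A, and the forms AGATAG and TGATAG, which end in G.

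Single-strand peaks of high signal that held a GATA site within 50 bp of the summit show what such a sequence looks like. Each sequence runs from 50 bases before to 50 bases after the summit in ce11, 5′ to 3′ on the strand of the gene, with every GATA site of either strand in capitals. Sequences here come from 5 strong peaks with a site, 3 of the strongest without a site, and a peak with a site from each of 7 lists of genes of the epidermis and its responses. Windows that overlap an annotated untranslated region are not printed. The first 5 lie upstream of ntl-11, a subunit of the CCR4-NOT complex that shortens mRNA tails, dmd-7, a DM-domain gene, dpyd-1, dihydropyrimidine dehydrogenase of pyrimidine breakdown, bcc-1, a homologue of the RNA-binding protein Bicaudal-C, and the same-strand pair ddp-1 and ttc-7.
ntl-11 (chrIV:15471571-15471671, minus strand): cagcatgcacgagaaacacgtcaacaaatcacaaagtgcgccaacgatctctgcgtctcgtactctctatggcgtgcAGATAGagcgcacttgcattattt
dmd-7 (chrV:6246527-6246627, plus strand): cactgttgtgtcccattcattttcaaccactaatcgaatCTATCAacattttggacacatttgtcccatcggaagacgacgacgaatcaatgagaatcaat
dpyd-1 (chrX:5467465-5467565, plus strand): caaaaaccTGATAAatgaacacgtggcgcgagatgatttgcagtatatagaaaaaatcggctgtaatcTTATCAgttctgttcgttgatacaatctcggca
bcc-1 (chrIV:11092810-11092910, minus strand): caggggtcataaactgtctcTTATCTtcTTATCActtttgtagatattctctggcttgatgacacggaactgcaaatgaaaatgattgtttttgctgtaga
ddp-1/ttc-7 (chrIII:1859691-1859791, plus strand): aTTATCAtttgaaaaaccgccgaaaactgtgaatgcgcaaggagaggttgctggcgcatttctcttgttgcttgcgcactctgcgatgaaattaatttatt
The sites read in the direction of the gene at ntl-11 and against it at dmd-7 and ddp-1. At dpyd-1 there was 1 of each, and at bcc-1 both sites read against the gene.

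Of the 4 single-strand peaks of highest signal, 3 are shown for contrast, and they hold no GATA site. They lie upstream of rpl-3 and rpl-35, which encode proteins of the large ribosomal subunit, and of cdc-48.1, which encodes an ATPase that unfolds ubiquitin-tagged proteins.
rpl-3 (chrIII:3867528-3867628, plus strand): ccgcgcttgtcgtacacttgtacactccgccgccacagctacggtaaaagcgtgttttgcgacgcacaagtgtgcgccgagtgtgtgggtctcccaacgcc
cdc-48.1 (chrII:10563511-10563611, minus strand): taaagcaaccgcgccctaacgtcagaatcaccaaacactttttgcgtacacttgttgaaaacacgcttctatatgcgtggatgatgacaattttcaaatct
rpl-35 (chrIII:7854645-7854745, plus strand): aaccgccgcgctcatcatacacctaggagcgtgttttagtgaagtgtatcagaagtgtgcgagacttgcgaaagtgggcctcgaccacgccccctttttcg
No capitals appear in these, since none of the 4 forms of the site occurs in these windows.

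The next 7 are peaks with a site from lists of genes of the epidermis and its stress responses, and their signals run from 39.5 (sta-2) to 118.7 (col-147). They lie at col-147, a cuticle collagen gene, dpy-31, an astacin protease that processes collagens, nlp-26, an antimicrobial peptide gene, sta-2, a STAT-like factor of epidermal immunity, fah-1, fumarylacetoacetase, the last enzyme of tyrosine breakdown, hog-1, a hedgehog-related gene, and osm-11, a secreted regulator of the osmotic stress response.
col-147 (chrV:9633459-9633559, minus strand): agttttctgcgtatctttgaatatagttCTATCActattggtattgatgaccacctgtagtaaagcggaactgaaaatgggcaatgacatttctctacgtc
dpy-31 (chrIII:7201582-7201682, plus strand): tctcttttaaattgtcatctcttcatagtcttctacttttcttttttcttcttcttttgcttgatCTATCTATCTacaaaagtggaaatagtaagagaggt
nlp-26 (chrV:19613247-19613347, plus strand): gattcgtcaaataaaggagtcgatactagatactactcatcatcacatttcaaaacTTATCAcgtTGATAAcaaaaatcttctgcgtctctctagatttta
sta-2 (chrV:9740989-9741089, plus strand): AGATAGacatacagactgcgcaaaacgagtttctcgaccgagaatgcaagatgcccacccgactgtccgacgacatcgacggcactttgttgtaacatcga
fah-1 (chrX:6449124-6449224, minus strand): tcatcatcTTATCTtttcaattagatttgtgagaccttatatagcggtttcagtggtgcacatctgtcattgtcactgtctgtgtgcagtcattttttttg
hog-1 (chrX:5854562-5854662, minus strand): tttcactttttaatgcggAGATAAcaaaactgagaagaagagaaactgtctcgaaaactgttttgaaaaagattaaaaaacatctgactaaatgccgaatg
osm-11 (chrX:17421880-17421980, minus strand): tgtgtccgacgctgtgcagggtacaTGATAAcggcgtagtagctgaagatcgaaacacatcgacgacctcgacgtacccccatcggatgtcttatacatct
The pair of sites at dpy-31 overlap each other, and the pair at nlp-26 face in opposite directions. The windows of ntl-11 and nlp-26 also hold a longer sequence, GAGACGCAG on either strand, to which the text returns.

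Single-strand peaks lay mostly just upstream of the annotated start, within bounds set by the rule. Its window reaches 1000 bp upstream but only 500 bp downstream, so more upstream than downstream positions could qualify. Of the 1045 summits, 923 (88.3%) were upstream and 122 at or downstream of the nearest 5′ end, with a median position of 235 bp upstream and quartiles at 435 and 103 bp upstream. Of all members, 634 (60.7%) lay between 400 bp and 1 bp upstream. They touched the windows of 1051 of the 19973 coding genes, a share of 5.26%, against 9.4% for any nuclear thresholded peak. A single gene was in reach of 1010 peaks and a pair of genes in reach of 34. The remaining peak (signal 39.5) lay in the windows of ZK856.11, ZK856.19 and ZK856.16. Genes of the plus strand had 547 peaks (52.3%) and those of the minus strand 498, and 50.3% of all coding genes are on the plus strand.

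**Figure D1:**
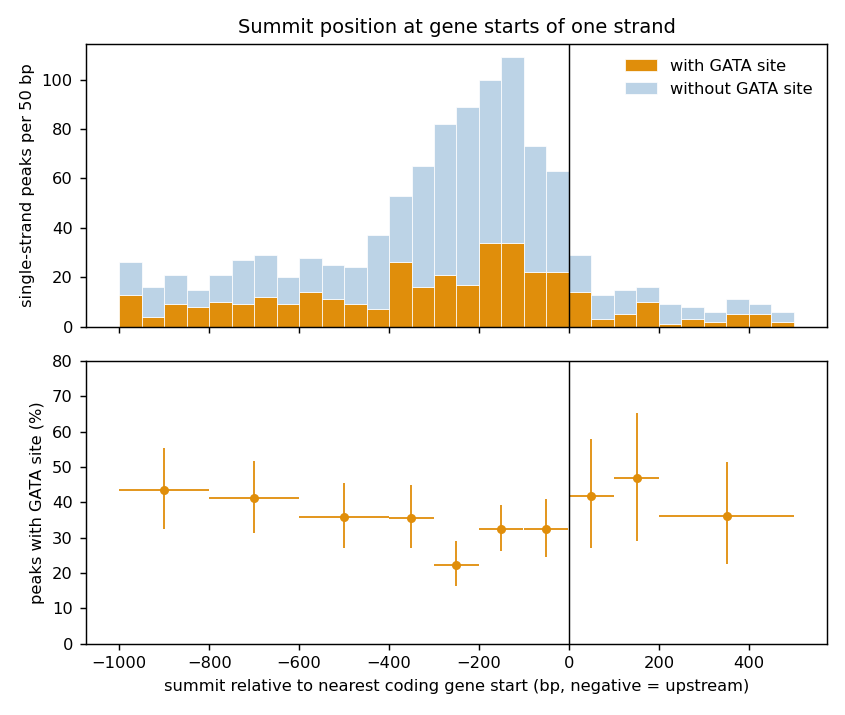
Position of the 1045 single-strand summits relative to the nearest gene start (x axis, bp, negative values upstream), with the number of peaks and the share of peaks with a GATA site in each bin and 95% exact binomial intervals. Peak numbers are highest just upstream of the start, and the share with a site is lowest, 22.2%, at 300 to 200 bp upstream.

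By annotation, 831 summits (79.5%) lay between genes. Introns held 62 of their own gene and 59 of another gene, untranslated regions 49 of their own and 28 of another gene, and coding sequence 11 and 5. The upstream neighbour ran in the same direction (tandem) at 586 peaks (56.1%), in the opposite direction at 395 (37.8%), and overlapped the gene at 64. These shares partly follow from the rule, which leaves out summits that also reach a gene start of the other strand. The median gap to the upstream gene was 3321 bp at divergent and 850 bp at tandem peaks. The rule shapes these gaps too, since it leaves out summits between close divergent starts but not those between close tandem genes. GATA sites were held by 32.8% of the tandem peaks (28.97 to 36.7) and 35.7% of the divergent ones (30.97 to 40.6), intervals that overlap. Within the tandem peaks the share was 20.2% of 193 (14.8 to 26.6) where the gap to the upstream gene was under 500 bp and 38.9% of 393 (34.1 to 43.9) where it was longer. This split was made after the values were seen and was not tested.

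Members were not spread evenly over chromosomes. The share of coding genes with a single-strand peak was highest on X, 7.80% (6.82 to 8.87), and on I, 6.95% (6.05 to 7.94), and lowest on V, 3.64% (3.14 to 4.20), where the intervals of X and V do not overlap. All nuclear thresholded peaks were uneven too, with 611 on X for 2731 coding genes and 450 on V for 4994. As a share of nuclear peaks, single-strand peaks made up 35.7% on X and 39.8% on V, within a range from 31.4% on IV to 40% on I. The share of peaks with a GATA site ran, with overlapping intervals, from 30% of peaks on III (22.6 to 38.3) to 37.4% on V (30.3 to 44.96).

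GATA sites were enriched at single-strand summits over their surroundings. Of the 1045 summit windows, 357 (34.2%, 31.3 to 37.1) held a site, against 34.8% of all nuclear thresholded summits. Windows of the same length 500 bp to the upstream side held one in 19.5% and those 500 bp to the gene side in 20%, a ratio of 1.73 to their mean (exact McNemar test against each flank, higher p = 4.8e-13). Of all coding genes, 21.99% held a site in such a window placed 235 bp upstream of the start. Summit windows were richer in G and C than flanks, 43.3% against 35.8%. Regions, not animals, are the units of these tests, so p-values speak of these lists and not of new libraries.

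The enrichment passed the test in replicate 1 alone, with a ratio of 1.74, and not in replicate 3 alone. The list of replicate 3 alone, taken down to the length of the thresholded list from its strongest region, gave a lower ratio. Of these regions 821 were single-strand peaks, and 25.1% held a site against 22.05% of flanks, a ratio of 1.14 (exact McNemar test, higher p = 0.486). Among thresholded members that overlap a replicate 3 region it was 1.56 (189 of 610 with a site, higher p = 1.9e-05 by the same exact test).

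**Figure D2:**
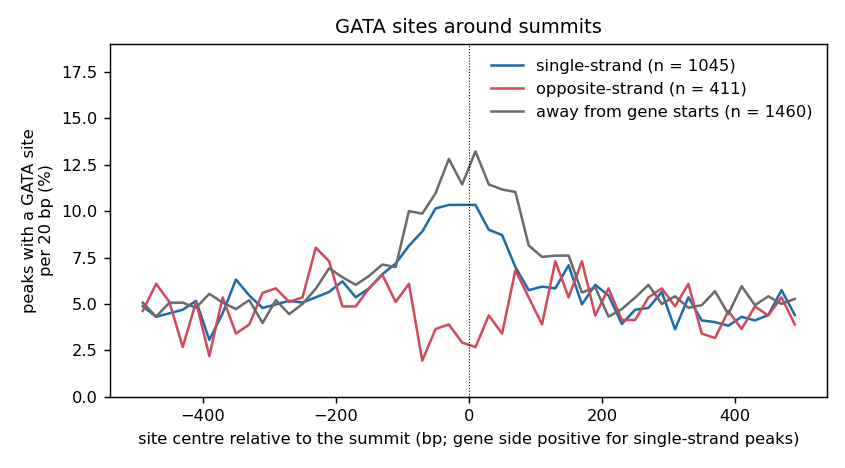
Share of peaks with a GATA site in each 20 bp bin (y axis, percent) against the distance of the site from the summit (x axis, bp, gene side positive for single-strand peaks), for the 3 classes of peaks. The line of single-strand peaks rises to 10.3% next to the summit, that of peaks away from gene starts rises higher, and that of opposite-strand peaks dips.

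Single-strand peaks differed in this from opposite-strand peaks, which also lie at gene starts. Only 13.4% of the 411 opposite-strand summits (10.2 to 17.1) held a site, below their own flanks at 20.8%. The odds of a site at single-strand peaks were 3.36 times as high (2.44 to 4.67; two-sided Fisher's exact test, adjusted p = 1.5e-15, Benjamini-Hochberg over 9 such tests). GC content was lower at single-strand than at opposite-strand summits, 43.3% against 45.7%, and among windows of 35 to 45% GC the odds ratio was 2.65. Among summits 100 to 400 bp upstream in both classes it was 2.97, and without genes of ribosomal proteins and translation factors 3.26. Among thresholded peaks with a replicate 3 region it was also 3.26 (2.11 to 5.18). In replicate 3 alone it was 1.15 (0.771 to 1.73, adjusted p = 0.564 by the same exact test), with sites at 25.1% of 821 single-strand and 22.6% of 177 opposite-strand peaks.

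Peaks away from coding gene starts held a site more often, 41.4% of 1460 (38.8 to 43.9), and the odds at single-strand peaks were 0.735 of theirs (0.621 to 0.870; Fisher's exact test, adjusted p = 0.00129). This difference was less firm. Within 35 to 45% GC the ratio was 0.813 (adjusted p = 0.241, same exact test), and in replicate 3 alone it was 1.09 (0.894 to 1.32), in the other direction.

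Among the members themselves, 218 held 1 site, 95 held 2, 34 held 3, 9 held 4, and the peak at R10D12.1 (983 bp upstream, signal 104.7) held 5. The 9 with 4 sites included spe-54 (161.3), blmp-1 (51.4), a zinc-finger gene active in the epidermis, and ugt-25 (40.4), a glucuronosyltransferase gene. TGATAA was the most frequent form, in 17.7% of windows and 9.33% of flanks. AGATAA was in 11.6% and 6.12%, AGATAG in 8.42% and 2.54%, and TGATAG in 6.51% and 2.92%. AGATAG therefore showed the highest ratio to its flanks, 3.32, and the other forms lay between 1.89 and 2.23. Each form was also more frequent than at opposite-strand summits, where shares ran from 1.46% to 6.33%.

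Sites were held by 33.3% of the 923 upstream summits and by 41.0% of the 122 at or downstream of the start (odds ratio 0.718, 0.480 to 1.08; Fisher's exact test, adjusted p = 0.156). By distance the lowest share was 22.2% of 171 peaks (16.23 to 29.2) at 300 to 200 bp upstream and the highest with over 50 peaks 43.6% of 78 (32.4 to 55.3) at 1000 to 800 bp upstream, and GC content was 45.7% in the first of these bins and 40.05% in the second. Whether GC content accounts for the difference was not tested. Among thresholded peaks of above-median signal the upstream to downstream odds ratio was 0.296 (0.146 to 0.587; adjusted p = 0.000767, same exact test). It rested on 145 of 466 upstream and 26 of 43 downstream peaks with a site. The comparison passed in no other setting, and the ratio was 0.711 in replicate 1 alone and 0.896 in replicate 3 alone.

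Sites more often read against the gene than with it. Of the 218 peaks with a single site, 86 (39.4%, 32.9 to 46.3) had it on the strand of the gene (exact binomial test, two-sided, p = 0.00223). The same direction was seen away from the peaks. Flanks on the upstream and gene side had 43.02% and 41.5% on that strand, and the windows of all coding genes 42.6% of 3699. Against these the odds ratio was 0.878 (0.656 to 1.17, Fisher's exact test, p = 0.398). No difference was found, and ratios within these bounds remain possible. In replicate 3 alone 44.7% of 161 sites were on the strand of the gene (exact p = 0.207).

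All 2080 distinct 6-base sequences, each counted with its reverse complement, were compared between single-strand and opposite-strand summits. After adjustment over all of them 55 (2.64%) were higher at single-strand peaks and 65 (3.12%) at opposite-strand peaks (Fisher's exact test). The first by p at single-strand peaks was TGATAA, in 17.7% of windows against 6.33% (exact test, adjusted p = 2.4e-06), and all 4 forms of the GATA site were among the 55. GATAAG, which overlaps AGATAA and TGATAA by 5 bases, was the fifth with 14.4% against 5.596%. GAGAGA was the ninth with 24.6% against 13.6%. At opposite-strand peaks the first was GCTCCA, in 14.4% of windows there and 3.25% of single-strand windows (exact test, adjusted p = 5.5e-10). The classes differ in GC content, as given above, and its part in these counts was not tested.

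GAGAGA, a GA repeat, and ACGCAG were also frequent at single-strand summits. GAGAGA was in 24.6% of windows, 5.36% of flanks and 6.71% of windows of all coding genes. ACGCAG was in 14.8%, 1.91% and 2.71%, and it was in 16.5% of opposite-strand windows. Over all nuclear thresholded summits GAGAGA was in 25.1% of windows and ACGCAG in 13.3%. At peaks away from gene starts they were in 28.8% and 11.4%. The longer GAGACGCAG, which contains ACGCAG and was chosen after the 6-base sequences were seen, was in 95 single-strand windows (9.09%), 0.431% of flanks and 149 of the 19973 windows of coding genes (0.746%). Of these 95 windows 35 also held a GATA site, close to the share of 34.2% in all single-strand windows. Opposite-strand peaks held GAGACGCAG in 5.84% (24 windows, 5 with a GATA site). Peaks away from gene starts held it in 6.51% (95 windows, 28 with a GATA site).

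**Figure D3:**
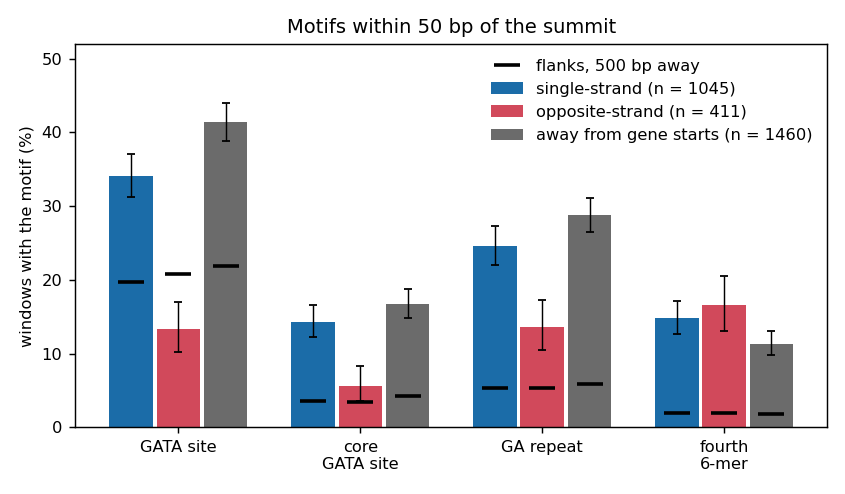
Share of summit windows (y axis, percent) that hold each motif, by class, with 95% exact binomial intervals and black lines for the mean of both flanks. The GATA site, GATAAG (labelled core GATA site) and the GA repeat are more frequent at single-strand than at opposite-strand summits, and ACGCAG, plotted last, is at 14.8% and 16.5%.

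Signal, the peak caller's measure of strength in the pooled libraries, ran from 34.2 to 490.4 over the members, with quartiles of 41.5, 52.9 and 71.8. A signal above the nuclear median was found at 49.3% of single-strand and 56.9% of opposite-strand peaks (odds ratio 0.735, 0.580 to 0.931; Fisher's exact test, adjusted p = 0.0264). In each replicate alone the ratio was 0.791 and 0.793, and neither passed (adjusted p = 0.0867 for replicate 1 and 0.512 for replicate 3, same exact test). Against peaks away from gene starts the ratio was 1.03 (adjusted p = 0.942, same exact test). In 5 groups of 209 members from the strongest to the weakest, the share with a GATA site was 29.2%, 33.01%, 38.3%, 32.5% and 37.8%, with overlapping intervals.

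Of the 50 strongest members, 10 held a GATA site, against 357 of all 1045 members (34.2%). This difference was not tested. rpl-3 came first with a signal of 490.4 in the pooled list, 467.6 in replicate 1 and 22.9 in replicate 3. These signals are on the scale of each list, and by rank the peak was number 3 in replicate 1 and 17 in replicate 3. cdc-48.1 followed with 446.4, number 4 in replicate 1 and 115 in replicate 3. Next was a peak 582 bp upstream of egg-5 (381.0) and 35 bp from the spliced-leader RNA gene sls-2.4, and another, at H41C03.3 (263.2), was 39 bp from sls-2.1.

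By signal, rpl-35 (325.1) stood between egg-5 and H41C03.3. Below H41C03.3 came the pair sec-61.G, a subunit of the channel that takes proteins into the endoplasmic reticulum, and F32D8.13 (247.5). The next were nspc-17 (244.3), imb-3 (239.6), an importin, his-37 (235.1), a histone H4 gene, bag-1 (225.9), an Hsp70 cochaperone, C47E8.4 (225.2), tos-1 (215.0) and cox-5A (204.3), a subunit of cytochrome c oxidase. None of these held a site, and each overlapped a region of replicate 3. The strongest with a site was gana-1 (202.2), a lysosomal galactosidase gene, with 3 sites 794 bp upstream and no region in replicate 3. cdo-1, cysteine dioxygenase, which breaks down cysteine, followed with 202.0 and 1 site, and ranked 62nd in replicate 1 and 68th in replicate 3.

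Among the other strong members with a site, dhp-1, which encodes dihydropyrimidinase, had 3 sites 47 bp downstream of its start (161.6, 105th in replicate 1 and 70th in replicate 3). dpyd-1, the dehydrogenase gene shown above, had a peak 355 bp upstream (134.4, 2 sites) and another 186 bp downstream in its own intron (85.8, 2 sites). Both had regions in replicate 3, ranked 870 and 5606. B0410.3 (126.6, 2 sites) ranked 26th in replicate 3, higher than its rank of 260 in replicate 1. dmd-7 (138.4) ranked 42nd in replicate 3 and 175th in replicate 1. ntl-11 (152.3) was 21132nd in replicate 3, and bcc-1 (126.6) had no region in that list. The other strong members with a site were F26A3.4 (161.4), spe-54 (161.3), tbc-6 (143.7) and T28F4.8 (138.3).

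Lists of epidermal genes had 1 to 15 single-strand peaks each, and most peaks were weak. The share of genes with a peak ran from 20% (junctions and attachments) to 33.3% (tyrosine breakdown) in lists of 6 to 23 genes. In the longer lists it was 2.5% to 8.52%. Lists were written from gene names with earlier results of these data known, and shares are to be read against the 5.26% of all coding genes, with no test. Counts of peaks with a site are to be read against the 34.2% of all members, also with no test. Of the 176 cuticle collagen genes 15 (8.52%) had a single-strand peak, and 8 of their 15 peaks held a GATA site. The strongest were col-147 (118.7, 171 bp upstream), dpy-10 (96.9, 353 bp upstream) and the pair col-159 and col-160, which share a peak (90.1). The peak at dpy-10 lies nearer to the start of T14B4.19, 351 bp downstream of it in an intron. Each of these peaks held 1 site, and they ranked 10995, 888 and 549 in replicate 3. Of 12 collagen-processing genes 3 had one, pdi-2 (62.6), a subunit of collagen prolyl hydroxylase, dpy-11 (49.4), a thioredoxin-like protein, and dpy-31 (40.6), of which dpy-31 held 2 sites and had no replicate 3 region.

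Of 23 molting genes 7 had a peak, with signals from 34.4 to 51.4 and sites at 3. The strongest were blmp-1 (51.4, 377 bp downstream, 4 sites), noah-1 (49.1, 2 sites), a zona pellucida-domain protein of the cuticle, and nhr-25 (40.2, no site), a nuclear receptor of epidermal cells. Of 18 epidermal transcription factors 5 had one, blmp-1, nhr-25, sta-2 (39.5, 1 site), hbl-1 (37.3) and nhr-23 (36.8), a receptor that times the molts, and the last pair held none. Of 20 genes of cell junctions and attachments 4 had a peak, none with a site, led by spc-1 (82.4), alpha spectrin, mup-4 (57.9) and mua-6 (53.5), an intermediate filament. Of 22 epidermal defence peptides 5 had one, led by cnc-8 (49.3), nlp-27 (49.2) and nlp-26 (47.6), and 3 of the 5 held a site.

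Of 6 tyrosine breakdown genes 2 had a single-strand peak, each with 1 site. They were fah-1 (115.2, no replicate 3 region) and tatn-1 (63.1, 486th in replicate 3), tyrosine aminotransferase, the first enzyme of the pathway. Of 20 osmotic and oxidative stress genes 6 had 7 peaks, of which 4 held a site. wdr-23, a ligase adaptor that holds down the stress factor SKN-1, led with 120.4 and no site, ahead of osm-11 (63.8, 185th in replicate 3) and tps-2 (49.2), a trehalose synthase. The hedgehog-related genes had 3 of 59, hog-1 (47.7), grl-26 (39.2) and wrt-3 (34.7), a share of 5.08%, close to that of all genes. Of 40 zona pellucida-domain and cuticlin genes only noah-1 had one.

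Ribosomal protein and translation factor genes also had shares above that of all coding genes, with 1 site-bearing peak in each list. Of 81 ribosomal protein genes 22 (27.2%) had a single-strand peak, with a median signal of 70.6 against 52.9 for all members, and rpl-24.2 (106.3) held the site. rps-28 (190.0) followed rpl-3 and rpl-35. Any nuclear thresholded peak was found at 60 of the 81. Translation factors had 11 of 40 (27.5%), led by eif-3.C (130.9), eef-1A.2 (115.2) and eif-3.B (106.9), and 1 of the 11 held a site. Mitochondrial respiration had 10 of 51 (19.6%), led by cox-5A, cyc-1 (151.7) and cox-5B (129.5), again with 1 site-bearing peak. Chaperones had 10 of 73 (13.7%), among them hsp-1 (151.7), pfd-6 (149.7) and hsp-3 (141.3), and 3 of the 10 held a site.

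**Figure D4:**
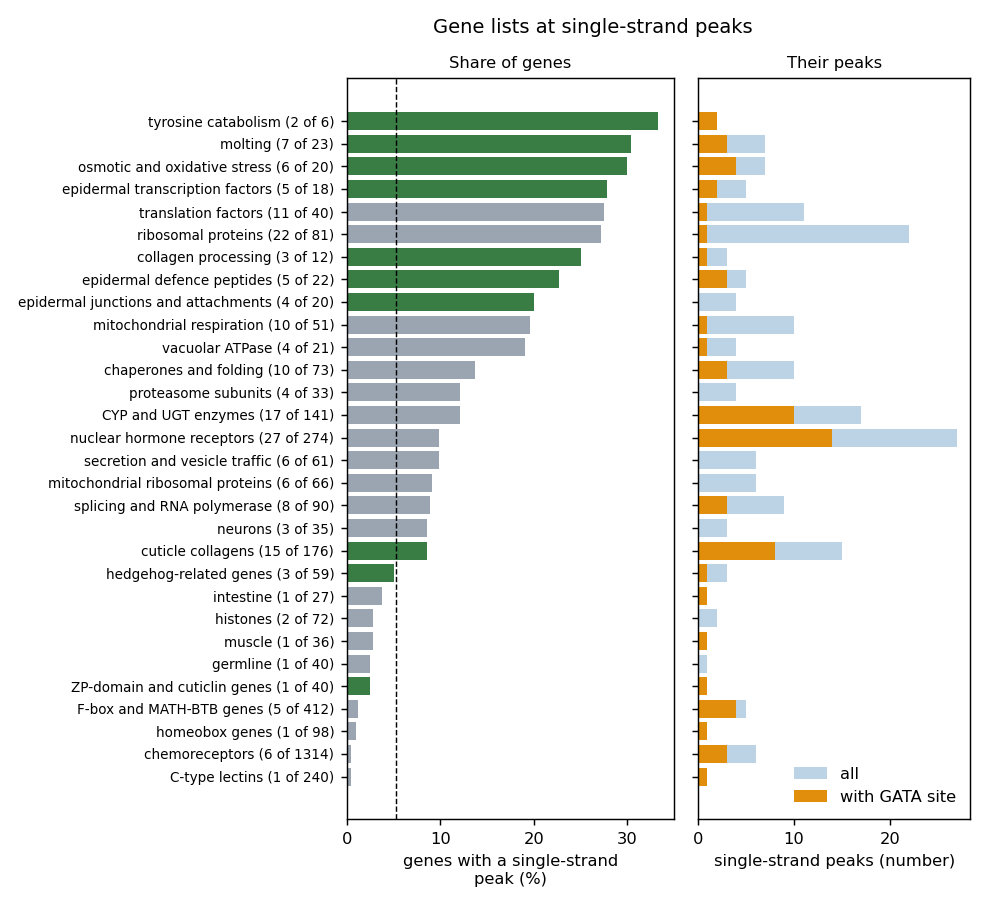
Share of the genes of each list with a single-strand peak (left, percent, dashed line at 5.26% for all coding genes, green for epidermal lists) and number of their peaks with and without a GATA site (right). Ribosomal protein and translation factor genes have 22 and 11 peaks with 1 site-bearing peak each, and nuclear hormone receptors 27 with 14.

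Detoxification enzymes and nuclear hormone receptors had peaks with and without sites. Of 141 cytochrome P450 and glucuronosyltransferase genes 17 (12.1%) had a peak, 10 with a site, and their median position was 77 bp upstream. cyp-29A4 (132.6, no site) led, followed by cyp-13A5 (78.3, no site) and ugt-64 (75.3, 2 sites). Of 274 nuclear hormone receptor genes 27 (9.85%) had one, 14 with a site. The strongest were nhr-119 (112.3, 2 sites, 67th in replicate 3), nhr-57 (104.2) and nhr-97 (79.3). Vacuolar ATPase genes had 4 of 21, proteasome genes 4 of 33, genes of secretion 6 of 61, mitochondrial ribosomal proteins 6 of 66 and splicing and RNA polymerase genes 8 of 90.

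Of 35 neuronal genes 3 (8.57%) had a single-strand peak, led by snb-1 (95.7), synaptobrevin, and none held a site. Muscle had 1 of 36 (unc-112, 35.6), intestine 1 of 27 (lbp-6, 37.6), the germline 1 of 40 (cgh-1, 54.4), homeobox genes 1 of 98 (alr-1, 38.1) and histones 2 of 72. Shares were 2.78% for muscle, 3.70% for intestine, 2.5% for the germline, 1.02% for homeobox genes and 2.78% for histones. Chemoreceptors had 6 of 1314 (0.457%), C-type lectins 1 of 240 (0.417%) and F-box and MATH-BTB genes 5 of 412 (1.21%). None of the 11 GATA factor genes had one.

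A region of replicate 1 overlapped 1043 of the 1045 members, where 99.8% of all nuclear thresholded peaks had one. A region of replicate 3 overlapped 610 (58.4%, 55.3 to 61.4), against 58.6% of all nuclear thresholded peaks. The odds ratio was 0.999 (0.787 to 1.27) against opposite-strand peaks and 0.981 (0.832 to 1.16) against peaks away from gene starts (Fisher's exact test, adjusted p = 1 and 0.942). The share fell with strength, from 78.5% of the 209 strongest members to 44.98% of the 209 weakest. Across the 610 members with both, which share the control file, Spearman's rho between the signals of the replicates was 0.341. The rho of the pooled signal was 0.949 with replicate 1 and 0.404 with replicate 3.

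Members with a GATA site had a replicate 3 region in 52.9% of 357 cases and those without in 61.2% of 688 (odds ratio 0.714, 0.547 to 0.932; Fisher's exact test, adjusted p = 0.0268). The median signal was 51.96 with and 53.1 without a site. GC content was 38.7% and 45.7%, and its part in the difference was not tested. The difference did not pass in several other settings, and with the replicate 3 list taken only to the length of the thresholded list the odds ratio was 0.902.

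Structural RNA genes lay within 100 bp of 53 single-strand summits (5.07%), 20 of them tRNA, 22 snoRNA and 11 snRNA genes. Of all nuclear thresholded peaks 7.54% had one so near, and of peaks away from coding gene starts 157 (10.8%, 9.21 to 12.5). At opposite-strand peaks the count was 10 (2.43%), an odds ratio of 2.14 (1.06 to 4.77; Fisher's exact test, adjusted p = 0.0554). It was 0.567 (0.207 to 1.79) in replicate 3 alone. Of the 22 near snoRNA genes 1 held a GATA site (4.55%, 0.115 to 22.8). Near tRNA genes 7 of 20 did (35%, 15.4 to 59.2), and near snRNA genes 2 of 11 (18.2%, 2.28 to 51.8). The share over all members was 34.2%, and these small counts were not tested.

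A pair of single-strand peaks lay at 30 genes, and no gene had 3. At egg-5 (381.0 and 120.3), H41C03.3 (263.2 and 94.4) and F55H12.7 (189.2 and 37.5) both peaks fell in the same region of each replicate's list, so they are not separate there. At F26A3.4 the pair (161.4 and 122.5) lay 54 and 804 bp upstream in separate regions, ranked 211 and 114 in replicate 3, and each held a site.

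At the limits of the window, just inside lay the peaks of lrp-1 (999 bp upstream, 34.4), a megalin homologue needed for molting, lpr-5 (997 bp upstream, 40.7), ugt-25 (499 bp downstream, 40.4) and Y56A3A.7 (486 bp downstream, 52.2). Just outside lay those nearest to ptr-13 (1002 bp upstream, 55.5), nol-58 (1003 bp upstream, 58.1), cpz-1 (504 bp downstream, 90.7) and asns-2 (506 bp downstream, 130.9).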

How the data were processed

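ChIP-seq of tagged ELT-3 was analysed from the region lists deposited for 2 libraries and their pool. Per the deposited manifest, alignments of 1 library or of the pool were set against a control shared by the libraries to make each list of candidates, and the thresholded list came from these. No aligner, caller or filter is named; these are not given in the sources used. The labels record sonication with a microtip for replicate 3 and a size range for replicate 1. The lists of the pool and replicate 1 held 30000 regions and that of replicate 3 held 24854. The deposited signal value is the caller's measure of strength, on a scale of each list, so lists were compared by rank. The deposited −log10 q-value column was not used to rank peaks. The deposited summit score is an offset in bp from the region's start. The number of unmapped columns was 0.

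The 24 mitochondrial peaks were left out. Gene starts came from Ensembl release 115 on WBcel235 (ce11), and sequence from the same assembly. Motifs were sought within 50 bp of summits and in equal windows 500 bp to each side. Overlap with a replicate's region needed at least 1 bp. A replicate alone means the 2940 regions of highest signal in its list, as many as the thresholded list holds. Fisher's exact tests (9, Benjamini-Hochberg), exact McNemar and exact binomial tests took regions as units. Intervals of shares are Clopper-Pearson 95%. Code was tested on simulated data.

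Members, lists and tests were chosen with earlier results of these data known. Genes are named by rule: the 15 strongest members, the 12 strongest with WGATAR, up to 3 per list, those at the window's edges, those with printed sequences, with 3 genes or the most sites, and those with several peaks. Other list members, including each collagen-processing gene, rpl-24.2 and the epidermal factors beyond the first 3, were named after their values were seen. Exact tests and adjustment used scipy 1.17.1 and statsmodels 0.14.6 in Python 3.11.15, tables pandas 2.3.3 and numpy 2.4.6, and plots matplotlib 3.10.9. Sequences of chromosome I are not printed.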

Additional observations from a re-analysis of the deposited data

How the results depend on the processing

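Of 94 values over all settings 62 counted as the same. For tests this means that direction and side of the threshold were kept, also where neither value passed. For the share of single-strand peaks it means a value within the main interval, and 3 values lay outside it. Of the rest, 17 no longer passed, 2 newly passed and 10 changed direction. In the values below, the cause of a change was not tested. The share of single-strand peaks was 30.7% with gene windows from 500 bp before to 250 bp after the start, 41.3% with windows from 2000 bp before it, and 28.1% to 35.7% in the replicates alone. With replicates alone the ratio of GATA sites to flanks ran from 1.14 to 1.74, the odds ratio against opposite-strand peaks from 1.15 to 3.08, that against peaks away from gene starts from 0.755 to 1.09, and the share of sites on the strand of the gene from 37.2% to 44.7%. In the same settings the odds ratio of a signal above the median against opposite-strand peaks was 0.791 to 0.793, and that of a structural RNA gene 0.567 to 2.21. With replicate 1 alone the replicate 3 region ratio against peaks away from gene starts was 1.01.

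With GATAAG in place of WGATAR the odds ratio against peaks away from gene starts was 0.835, the strand share 43.6% and the replicate 3 ratio with against without a site 0.739. The 2000 bp window gave 0.866 against peaks away from gene starts, 0.972 for signal against them and 2.63 for structural RNA genes. The 500 bp window gave 0.846 for signal against opposite-strand peaks and 0.740 for the replicate 3 ratio with against without a site. With peaks of above-median signal the upstream to downstream ratio was 0.296, the replicate 3 ratio against opposite-strand peaks 1.16, the signal ratios 0.731 and 0.924, and the replicate 3 ratio with against without a site 0.760. Without peaks at structural RNA genes the replicate 3 ratios were 1.02 against opposite-strand peaks, 1.01 against peaks away from gene starts, and 0.751 with against without a site. With the summit inside the replicate 3 region they were 1.01 against peaks away from gene starts and 0.767 with against without a site. With the strongest replicate 3 regions, as many as the thresholded list holds, they were 1.01 against opposite-strand peaks and 0.902 with against without a site. Within 35 to 45% GC the odds ratio of sites against peaks away from gene starts was 0.813.

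The settings for GC content, matched distance, genes of protein synthesis left out and peaks with a replicate 3 region were chosen after seeing the data. Positions refer to annotated starts. With 1 group and no read counts, depth and the variation between batches of larvae are unknown. The replicate 3 region comparisons were not run on replicate 3's own list, which would overlap itself. No paired analysis was possible because the labels give 1 group.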
